A study of Mus musculus with 6 samples.

Results

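The genes described here are 36 structural genes of neural and neuronal cells: the proteins of the neuronal cytoskeleton, of cell adhesion, of the growth cone and of the synapse, with no transcription factor among them. They were chosen by name, with earlier results of these data known. For each, the brightest probe set on average was used, out of those that the platform annotation gives to that gene alone. All 36 had such a probe set, out of 18193 genes that did. Cells were mouse embryonic stem (ES) cells of strain 129SV in steady culture, collected in Trizol after 24 hours in fresh complete ES cell medium. One group was wild-type and the other a knockout of Med23, which encodes a subunit of Mediator, the complex that connects transcription factors with RNA polymerase II. Each group held 3 arrays, called biological replicates in the labels. The sources used here do not say how the knockout was made or whether it is 1 clone. The study's title asks about neural differentiation and BMP signalling, and the samples are of ES cell culture only.

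As background, a neural progenitor holds nestin intermediate filaments and N-cadherin junctions. A cell that becomes a neuron builds microtubules from neuronal tubulins, stabilizes them with microtubule-associated proteins, lets stathmins and collapsin response mediator proteins (CRMPs) tune their growth, fills the axon with neurofilaments and finally assembles synaptic vesicles. Several of these genes are also transcribed in other cells, ES cells included. Others, such as doublecortin and the synaptic vesicle proteins, are used as markers of neurons. In many non-neuronal cells the repressor REST keeps part of them low.

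Promoter sequences are shown for a few members as examples. They are the paralogs Elavl3 and Elavl4, which moved in opposite directions, Tubb2a, which rose, and Map2, which fell. The last is Syn1, which stayed dim and carries the 5′ part of a REST element. Stmn3, which also fell, has a window with none of the motifs searched and is not printed. The RefSeq promoter table of GRCm38.p6 held 22 of the 36 genes, with 31 transcription starts. It had no entry for Msi1, Cdh2, Tubb2b, Mapt, Stmn2, Stmn4, Dpysl2, Dpysl3, Ncam1, Gap43, Marcks, Nefl, Nefm and Snap25. Each sequence is the 250 bases before a start, 5′ to 3′ on the strand of the gene, and capitals mark a match to a motif searched on both strands. The windows are chr9:22052024-22052273, minus strand (Elavl3), chr4:110287528-110287777, minus strand (Elavl4, 1 of its 4 starts), chr13:34078009-34078258, minus strand (Tubb2a), chr1:66175079-66175328, plus strand (Map2) and chrX:20920919-20921168, minus strand (Syn1).
Elavl3: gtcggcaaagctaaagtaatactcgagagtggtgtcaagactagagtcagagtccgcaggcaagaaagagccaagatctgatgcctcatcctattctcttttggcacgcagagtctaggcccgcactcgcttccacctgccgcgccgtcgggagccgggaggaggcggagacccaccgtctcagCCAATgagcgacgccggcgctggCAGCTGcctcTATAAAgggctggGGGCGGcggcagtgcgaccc
Elavl4: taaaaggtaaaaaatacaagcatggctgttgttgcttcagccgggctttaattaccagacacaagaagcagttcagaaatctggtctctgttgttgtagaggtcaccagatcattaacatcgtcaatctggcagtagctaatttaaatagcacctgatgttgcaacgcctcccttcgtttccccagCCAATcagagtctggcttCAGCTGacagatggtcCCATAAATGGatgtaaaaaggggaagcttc
Tubb2a: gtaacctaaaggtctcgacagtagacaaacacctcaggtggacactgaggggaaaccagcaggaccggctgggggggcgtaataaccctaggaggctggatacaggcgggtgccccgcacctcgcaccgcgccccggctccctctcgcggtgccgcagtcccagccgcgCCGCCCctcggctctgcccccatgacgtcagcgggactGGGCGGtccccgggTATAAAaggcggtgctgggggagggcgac
Map2: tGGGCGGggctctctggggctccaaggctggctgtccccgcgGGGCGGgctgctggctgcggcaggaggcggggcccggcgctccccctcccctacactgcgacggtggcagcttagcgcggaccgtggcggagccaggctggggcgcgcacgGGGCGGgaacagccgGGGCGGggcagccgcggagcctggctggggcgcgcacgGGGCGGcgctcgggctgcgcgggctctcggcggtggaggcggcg
Syn1: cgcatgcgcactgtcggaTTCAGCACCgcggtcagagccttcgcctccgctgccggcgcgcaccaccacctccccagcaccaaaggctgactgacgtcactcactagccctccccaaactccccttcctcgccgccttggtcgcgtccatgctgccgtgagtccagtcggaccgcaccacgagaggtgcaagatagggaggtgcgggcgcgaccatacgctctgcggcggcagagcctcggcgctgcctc
The 7 motifs were the TATA box (letters TATAAA), the CAAT box (letters CCAAT), the GC box (letters GGGCGG), the EGR-type box (letters GCGNGGGCG), an E-box (letters CAGCTG), the 5′ part of a REST element (letters TTCAGCACC) and the CArG box of SRF. Matches to the EGR-type and GC boxes can overlap. In the windows printed, Elavl3 and Elavl4 had a CAAT box beginning 66 and 64 bases before the start, and an E-box 43 and 46 bases before it. Closer to the start, Elavl3 had a TATA box at 33 bases and Elavl4 a CArG box at 30. Of the other Elavl4 starts, the nearest has a window that overlaps the printed one and holds the same matches with a further CAAT box. Counted from that start, the shared CAAT box, E-box and CArG box begin at 80, 62 and 46 bases. The near-equal spacing in Elavl3 and Elavl4 thus depends on the start printed, and the start used in these cells is not known here. Another Elavl4 window holds only a CAAT box on the opposite strand, and the last holds none of the motifs. Tubb2a had a TATA box at 29 bases. Map2 had 5 GC boxes in a window of 81.2% G and C. The REST part in Syn1 began 232 bases before the start. Among all 32851 windows of this length, 12.4% held the TATA box, 33.8% the CAAT box, 32.7% the GC box, 4.7% the EGR-type box, 13% the E-box, 0.301% the REST part and 1.47% a CArG box. Of the 22 genes, 15 held the GC box in a window (among them Tubb2a and Ina, which rose, and Map2, Map1b, Nes, L1cam, Elavl3 and Syt11, which fell), 5 the TATA box, 8 the CAAT box, 4 the E-box, 3 the EGR-type box, and 1 each the REST part and a CArG box. These counts are per gene, over all its windows, whereas the shares before them are per window, so they cannot be compared directly. The median G and C content was 56.4% over the members' windows and 52.4% over all windows. A match is a string of letters and does not show that a factor binds there.

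Before the members, the targeted gene was checked. Med23 was 8.84 to 8.95 (log2) on the wild-type arrays and 7.33 to 7.40 on the knockout arrays, which is -1.52 on the log2 scale (SE 0.06; limma adjusted p = 2.69e-05). The sources used here do not say whether its probe set lies within the deleted part. The Y-linked gene Eif2s3y had a mean of 3.04 in wild-type and 9.87 in knockout arrays, so the cell lines differ in more than Med23, and the part of Med23 in any difference below cannot be told apart from other differences between the lines. Wild-type replicate 1 stood apart, with 752 probe sets lower than its fellows' mean by 2-fold or more. All 12 pluripotency markers, Pou5f1, Nanog and Sox2 among them, exceeded the overall array median (4.62, the middle of all values, called the array median below) in both groups. Of 11 measured glial markers, 6 lay no higher than it in either group, and so did 7 of 12 fibroblast markers.

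Of the 36 genes, 8 rose, 12 fell and 16 did not pass the test at an adjusted p under 0.05 (limma, adjusted over all 45037 probe sets). The count of 8 became 5 when knockout replicate 1, 2 or 3 was left out, and the lost calls are named below. The full counts are 22.2% higher and 33.3% lower, beside 8.53% higher and 10.4% lower among all 18193 genes. Past the test in either direction were 55.6% of the members and 18.9% of all genes. The same was counted for genes with a group mean above the array median: 20 of 29 members (69.0%) passed, beside 27.2% of 11826 genes. Because the members were chosen with earlier results of these data known, these higher shares are not an independent result. The median log2 fold change was -0.08 over the members and 0.02 over all genes, and the median size of the change, whatever its sign, was 0.35 and 0.13. Over the 29 brighter members the median was -0.15, beside 0.02 over the genes counted with them. Most changes were small: 13 of the 20 were under 1.5-fold, 2 lay between 1.5-fold and 2-fold, and 5 were at least 2-fold (2.61% of all genes were called at that size). The 5 were Dpysl3, Map2, Nefm and Stmn3, which fell, and Stmn2, which rose. In all 20 the groups did not overlap. Over all members this held for 24 of 36, beside 40.9% of all genes.

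**Figure D1:**
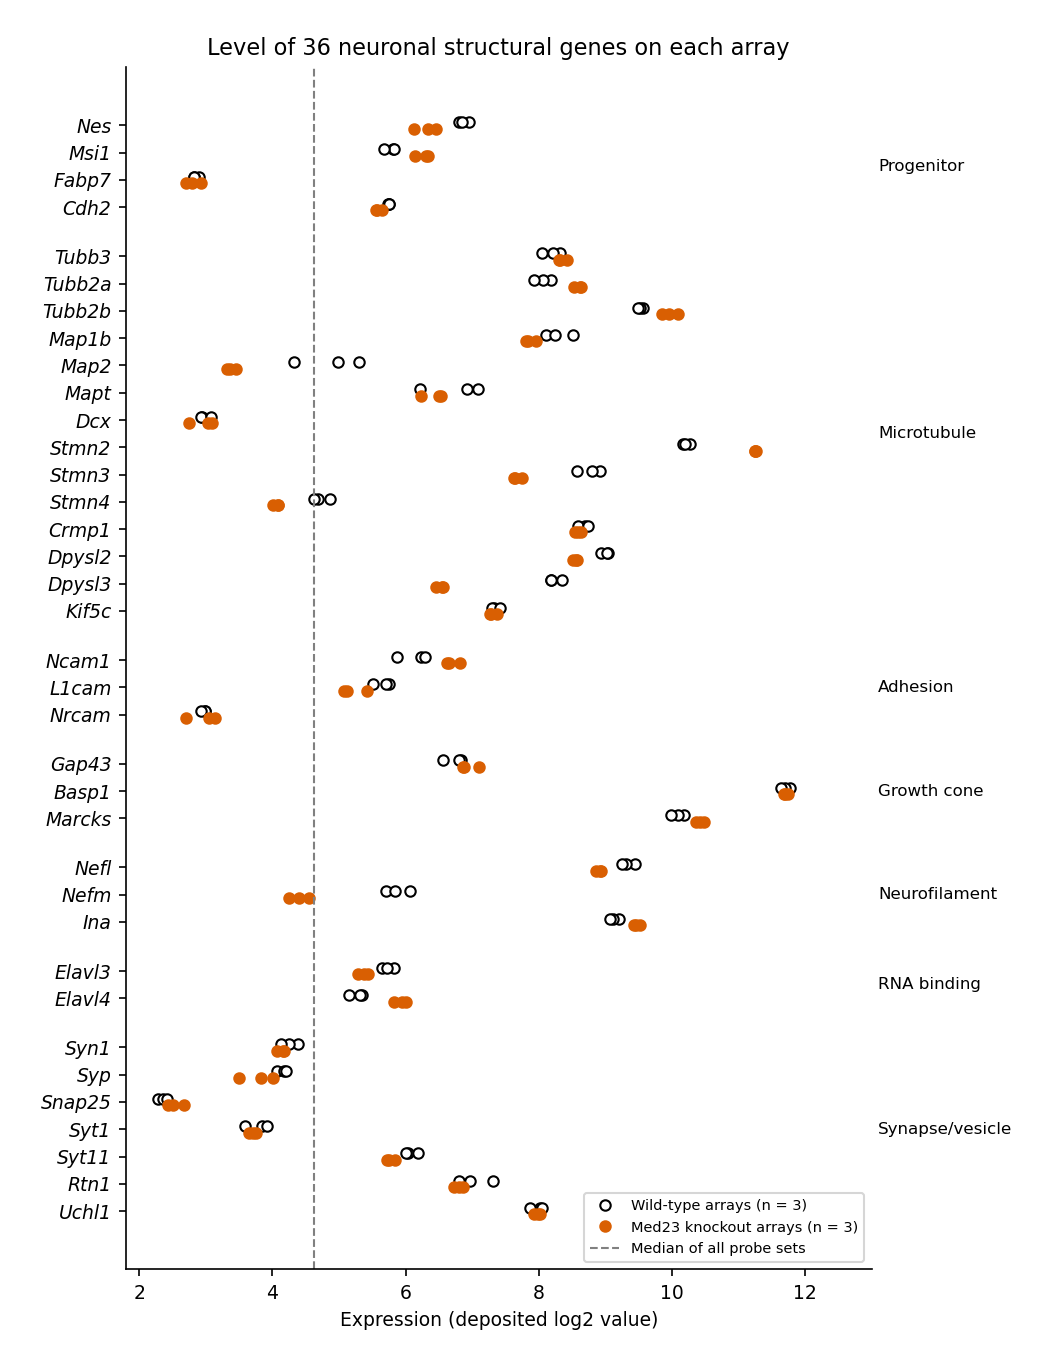
Deposited log2 values (horizontal axis) of the 36 genes, grouped by role, on the 3 wild-type arrays (open circles) and the 3 knockout arrays (filled circles); the dashed line is the array median, 4.62. The knockout points of Stmn2 sit to the right of the wild-type points and those of Dpysl3, Stmn3, Map2 and Nefm to the left, while 7 genes lie left of the line in both groups; levels of different genes come from different probes and cannot be ranked.

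Progenitor genes were split. Nes, the nestin filament gene of neural stem cells, was 6.95, 6.80 and 6.85 on wild-type replicates 1, 2 and 3 and 6.46, 6.34 and 6.13 on knockout replicates 1, 2 and 3. Every knockout array was below every wild-type array, and the difference was -0.56 on the log2 scale (SE 0.10; limma adjusted p = 0.00955). Msi1, which encodes the RNA-binding protein Musashi 1, went the other way. It was 5.81, 5.83 and 5.67 in wild-type and 6.14, 6.31 and 6.34 in knockout cells, 0.49 higher on the log2 scale (SE 0.08, limma adjusted p = 0.00773). Of 3 Msi1 probe sets only this one passed, and averaged over the 3 the call ended (0.15, adjusted p = 0.0909). Cdh2, the N-cadherin gene, had a log2 fold change of -0.15 (adjusted p = 0.165) by its brighter probe set. Its other probe set fell by 0.47 (adjusted p = 0.00898), and the mean of both was past the test (-0.31, adjusted p = 0.00976). Fabp7, the fatty acid binding protein of radial glia, lay between 2.70 and 2.93 on all 6 arrays, at the dim end of the range, and did not pass.

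Of 14 genes that build or regulate microtubules, 3 rose and 6 fell. The stathmins, small proteins that bind tubulin dimers, moved in both directions. Stmn2, known for its place in the growth cone, was 10.27, 10.16 and 10.19 in wild-type and 11.24, 11.25 and 11.26 in knockout cells. The knockout arrays were nearly equal to each other and all above the wild-type arrays, 2.06-fold by their means (log2 fold change 1.04, SE 0.06, limma adjusted p = 9.67e-05). The dimmer Stmn2 probe set rose further, by 1.52. Stmn3 was 8.93, 8.79 and 8.58 in wild-type and 7.65, 7.75 and 7.62 in knockout cells. It fell 2.13-fold (log2 fold change -1.09, SE 0.10, limma adjusted p = 0.000596), and its other probe set gave -1.09 too. Stmn4 was 4.69, 4.62 and 4.87 in wild-type and 4.09, 4.01 and 4.09 in knockout cells, with no overlap (-0.67, SE 0.08, limma adjusted p = 0.00207); its knockout mean lay below 4.62, so the size is uncertain. Stmn1, the widely expressed stathmin and not one of the 36 genes, rose by 0.42 (adjusted p = 0.00388).

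The CRMP genes, whose products bind tubulin and act in axon guidance, held 2 genes that fell. Dpysl3 was 8.35, 8.19 and 8.18 in wild-type and 6.55, 6.56 and 6.46 in knockout cells. That was 3.29-fold lower (log2 fold change -1.72, SE 0.07, limma adjusted p = 3.02e-05), with a gap between the groups far wider than the spread within them. The other probe sets of Dpysl3 gave -1.99 and -2.03. Dpysl2 was 9.05, 8.93 and 9.03 in wild-type and 8.51, 8.58 and 8.55 in knockout cells, all lower (-0.45, SE 0.06, limma adjusted p = 0.00395). A dim further probe set of Dpysl2 did not pass (0.06, adjusted p = 0.705), and the average of both fell less (-0.20, adjusted p = 0.0377). Crmp1 was 8.69, 8.59 and 8.74 in wild-type and 8.59, 8.55 and 8.64 in knockout cells, with overlapping groups (-0.08, adjusted p = 0.519). Of the relatives outside the list, Dpysl4 (-0.13) and Dpysl5 (-0.59, adjusted p = 0.0577) did not pass.

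Beta-tubulins form the microtubule wall together with alpha-tubulins. Tubb2a was 8.19, 8.06 and 7.93 in wild-type and 8.62, 8.64 and 8.54 in knockout cells (log2 fold change 0.54, SE 0.08, limma adjusted p = 0.00563). Tubb2b was 9.56, 9.52 and 9.49 against 9.96, 10.09 and 9.86 (0.44, SE 0.08, adjusted p = 0.00942). Both rose with no overlap between the groups. They are near-identical neighbours on chromosome 13, and the Tubb2a probe set is of a type (_s_at) that can match several transcripts, so the rises may not be separate measurements. With such probe sets left out, Tubb2a was read by a dimmer one and did not pass (0.16, adjusted p = 0.444). Tubb3, the class of beta-tubulin used as a neuron marker, was 8.32, 8.21 and 8.05 in wild-type and 8.32, 8.42 and 8.31 in knockout cells and did not pass (0.16, adjusted p = 0.305). Neither did Tubb4a, Tubb4b, Tubb5 or Tubb6, which lay between -0.03 and 0.08.

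Microtubule-associated proteins stabilize and space microtubules. Map2, the dendritic one, was 4.32, 4.99 and 5.31 in wild-type and 3.36, 3.45 and 3.32 in knockout cells. The wild-type arrays were far apart and all above the knockout arrays, and the means differed by -1.49 (log2, SE 0.23, limma adjusted p = 0.00547). The knockout mean was dim and 1 of 4 Map2 probe sets passed, so the size is uncertain; their average fell by 0.41 (adjusted p = 0.00581). Map1b, which acts early in axons, was 8.11, 8.25 and 8.51 against 7.84, 7.96 and 7.81 (-0.42, SE 0.11, limma adjusted p = 0.0462). That call ended in 5 of 6 fits lacking 1 array, all but the fit without wild-type replicate 1, with an adjusted p up to 0.146 without knockout replicate 3; it also ended when probe sets were averaged (-0.19). Mapt, the tau gene, was 7.09, 6.92 and 6.22 in wild-type and 6.23, 6.54 and 6.51 in knockout cells. Wild-type replicate 3 was lower than its fellows, the groups overlapped, and Mapt did not pass (-0.32, adjusted p = 0.434); without that array it did (-0.58, adjusted p = 0.0318). Kif5c, a neuronal kinesin motor gene, was 7.33, 7.30 and 7.42 against 7.27, 7.37 and 7.28 and did not pass (-0.05, adjusted p = 0.719). Dcx, the doublecortin gene of migrating neurons, lay between 2.75 and 3.09, and none of its 4 probe sets passed.

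**Figure D2:**
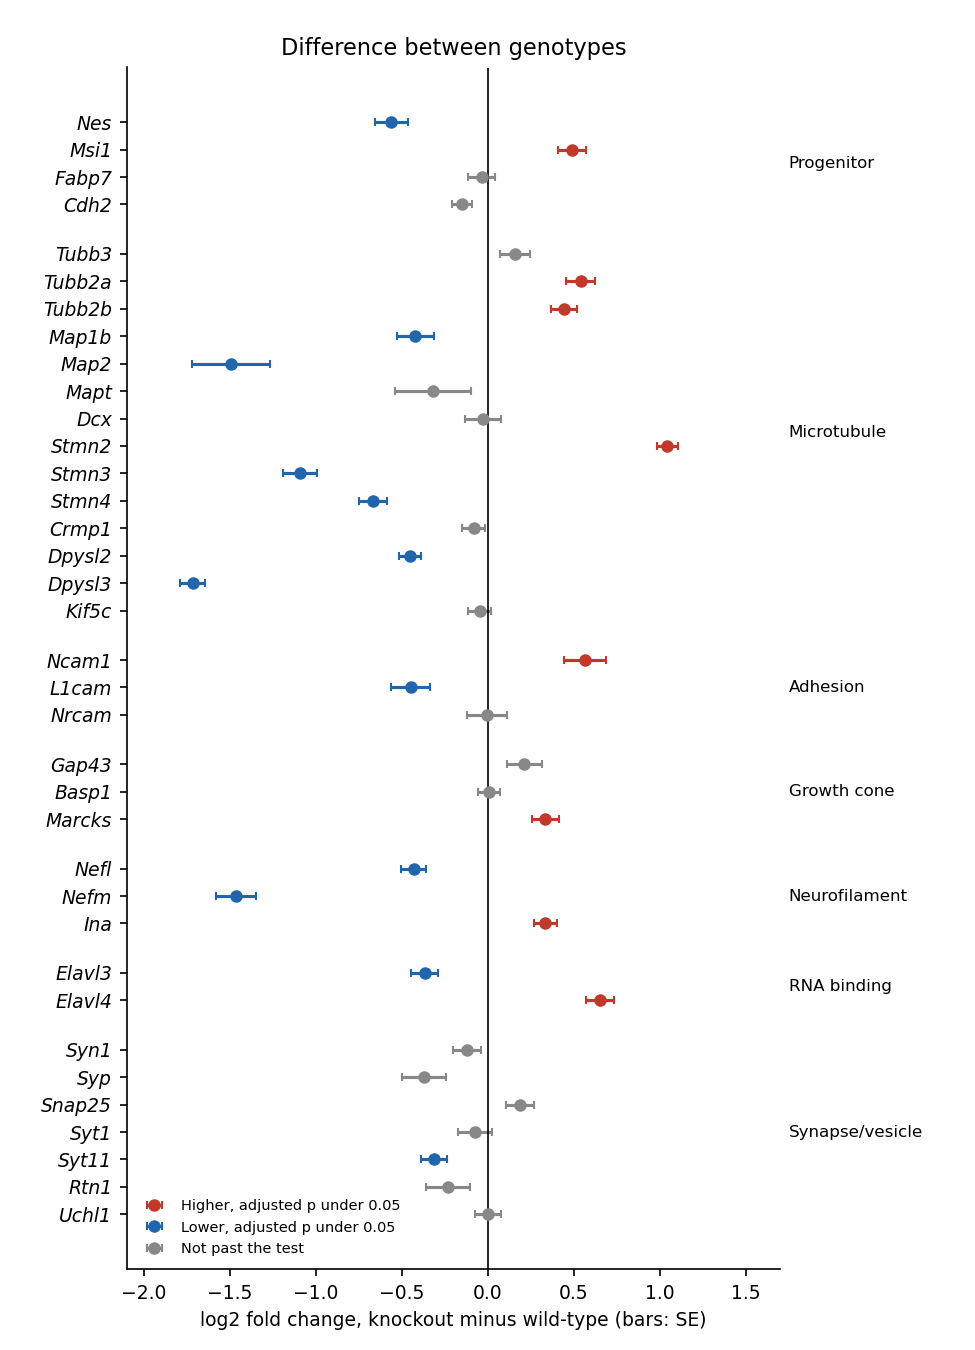
Log2 fold change (knockout minus wild-type, horizontal axis) of the 36 genes by role, with its standard error; red points rose and blue points fell at an adjusted p under 0.05, grey points did not pass. Changes run from -1.72 for Dpysl3 to 1.04 for Stmn2, and roles with 2 or more changed genes hold both directions.

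Of the 3 adhesion genes of the immunoglobulin superfamily, 1 rose and 1 fell. Ncam1 was 6.24, 6.28 and 5.87 in wild-type and 6.62, 6.82 and 6.65 in knockout cells (0.57, SE 0.12, limma adjusted p = 0.0231). All knockout arrays were higher, and another of its 7 probe sets rose by 0.77. The call ended without each of the knockout replicates (adjusted p up to 0.0873, without knockout replicate 2). It ended also when the 7 probe sets were averaged (0.26, adjusted p = 0.0552) and with plain probe set types alone, by a dim probe set (0.02). L1cam, an X-linked axon growth molecule, was 5.75, 5.52 and 5.71 against 5.43, 5.08 and 5.12 (-0.45, SE 0.11, limma adjusted p = 0.0417). That call was at the edge of the test and ended in 5 of 6 fits lacking 1 array, all but that without knockout replicate 1 (adjusted p up to 0.138, without knockout replicate 2). Averaged over both L1cam probe sets it ended too (-0.19, adjusted p = 0.223). Nrcam was dim, with both means at 2.97 and 2.96. Another of its 4 probe sets, dim as well, fell by 0.63 (adjusted p = 0.01).

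Among growth cone proteins of the inner membrane, Marcks rose. It was 10.18, 10.10 and 9.98 in wild-type and 10.42, 10.49 and 10.37 in knockout cells (0.34, SE 0.08, limma adjusted p = 0.0275), and 3 of its 7 probe sets passed. The call ended in 5 of 6 fits lacking 1 array, all but that without wild-type replicate 1 (adjusted p up to 0.107, without knockout replicate 2), and with probe sets averaged (0.20). Gap43, a marker of growing axons, was 6.83, 6.57 and 6.81 in wild-type and 6.86, 6.87 and 7.11 in knockout cells; the groups did not overlap, but it did not pass (0.21, adjusted p = 0.251). Basp1 was 11.78, 11.70 and 11.64 against 11.75, 11.70 and 11.69, with overlapping groups (0.01, adjusted p = 0.968).

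Neurofilaments are the intermediate filaments that set axon calibre. Nefm was 5.70, 6.06 and 5.83 in wild-type and 4.55, 4.41 and 4.25 in knockout cells, 2.76-fold lower (log2 fold change -1.46, SE 0.12, limma adjusted p = 0.000338). All knockout values were dimmer than the array median, which leaves the size uncertain. Its chromosome 14 neighbour Nefl was 9.45, 9.31 and 9.25 against 8.87, 8.93 and 8.92 (-0.43, SE 0.07, limma adjusted p = 0.00836), and a dimmer Nefl probe set fell by 1.11. Ina, the alpha-internexin gene on chromosome 19, rose instead. It was 9.21, 9.12 and 9.07 in wild-type and 9.47, 9.43 and 9.52 in knockout cells (0.33, SE 0.07, limma adjusted p = 0.0173). The Ina call ended in 4 of 6 fits lacking 1 array: those without each knockout replicate and without wild-type replicate 2 (adjusted p up to 0.0788, without knockout replicate 3). The heavy neurofilament gene Nefh, outside the list, was level (0.02, adjusted p = 0.907).

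The neuronal ELAV proteins bind AU-rich stretches of messenger RNA, and the paralogs whose promoters are printed above parted. Elavl4 was 5.34, 5.31 and 5.16 in wild-type and 6.0, 5.94 and 5.82 in knockout cells (0.65, SE 0.08, limma adjusted p = 0.00226). All 3 of its probe sets rose, by 0.62 to 0.93. Elavl3 was 5.83, 5.64 and 5.72 against 5.43, 5.28 and 5.38 (-0.37, SE 0.08, limma adjusted p = 0.0212), and 1 of its 3 probe sets passed. The Elavl3 call ended without knockout replicates 2 and 3 and without wild-type replicate 3 (adjusted p up to 0.0852, without knockout replicate 2). Elavl1, the ubiquitous member, and Elavl2 did not pass (-0.04 and 0.26).

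Of 7 synaptic and secretory genes, 1 passed the test, and it fell. Syt11, a synaptotagmin of vesicle traffic, was 6.04, 6.19 and 6.01 in wild-type and 5.75, 5.72 and 5.84 in knockout cells (-0.31, SE 0.08, limma adjusted p = 0.0356). Of its 5 probe sets 4 fell, with log2 fold changes from -0.65 to -0.31. By the brightest of them the call ended in 5 of 6 fits lacking 1 array, all but that without wild-type replicate 1 (adjusted p up to 0.13, without knockout replicate 2). The vesicle and release genes Syn1, Syp, Snap25 and Syt1 lay no brighter than the array median in either group. Syn1 was 4.12 to 4.38 in wild-type and 4.06 to 4.17 in knockout cells. Syp was 4.06 to 4.21 and 3.50 to 4.01 (-0.37, adjusted p = 0.113), Snap25 2.28 to 2.42 and 2.44 to 2.67 (0.19, adjusted p = 0.199), and Syt1 3.58 to 3.92 and 3.65 to 3.75. Rtn1, a reticulon of the endoplasmic reticulum, was 7.31, 6.96 and 6.81 in wild-type and 6.81, 6.72 and 6.86 in knockout cells (-0.23, adjusted p = 0.318). Uchl1, a neuronal deubiquitinase, was 8.02, 7.86 and 8.05 against 7.93, 7.99 and 8.02, with the knockout values inside the wild-type range (0.00, adjusted p = 0.99).

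The 7 genes no brighter than the array median in either group were thus Fabp7, Dcx, Nrcam, Syn1, Syp, Snap25 and Syt1. Values this dim lie near background, so presence of the transcript cannot be read from the level, and the size of a change is uncertain there, as for the dimmer Nrcam probe set that fell.

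**Figure D3:**
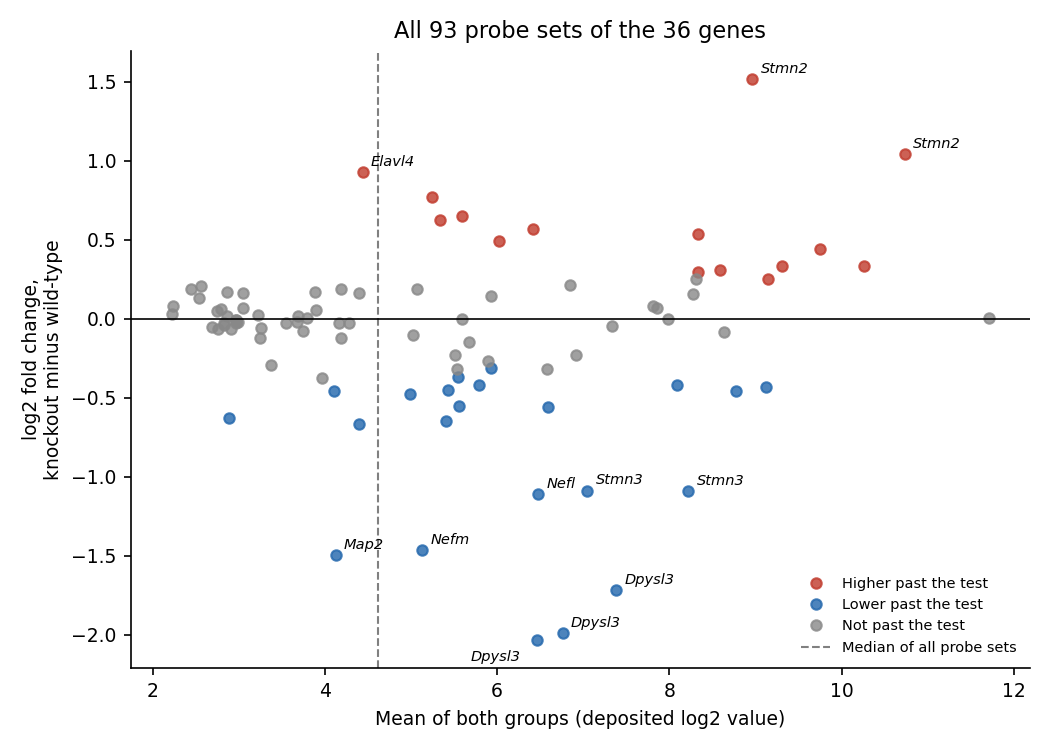
Log2 fold change (vertical axis) against the mean of the 2 group means (horizontal axis, deposited log2 value) for all 93 probe sets of the 36 genes; red rose, blue fell, grey did not pass, and the dashed line is the array median. Of the 93, 15 rose and 22 fell, and the 3 probe sets of Dpysl3 and both of Stmn3 lie below 0, both of Stmn2 above it.

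Probe sets of one gene gave no opposite calls. Over the 93 probe sets of the 36 genes, 15 rose and 22 fell, beside 6.69% higher, 7.43% lower and 14.1% called either way among all probe sets. No gene had probe sets past the test in both directions. Of the 17 changed genes with more than 1 probe set, every probe set passed in 5: Stmn2, Stmn3, Dpysl3, Nefl and Elavl4. The spread was larger among wild-type than among knockout arrays for 26 of the 36 genes (median SD 0.097 and 0.068). This was not particular to them: over all probe sets, wild-type arrays correlated at 0.993 to 0.9974 with each other and knockout arrays at 0.9978 to 0.9981. Calls were kept in all 15 alternative settings by 7 of the 20 changed genes, namely Map2, Stmn2, Stmn3, Stmn4, Dpysl3, Nefm and Elavl4.

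Relatives of the members were taken from 4 lists of cytoskeletal, adhesion, synaptic and RNA- or lipid-binding genes. Of 103 measured relatives, 8 rose and 8 fell (15.5% together, beside 18.9% of all genes), and their median log2 fold change was 0.03. By list, 2 of 28 cytoskeletal genes rose and 3 fell, 1 of 22 adhesion genes rose and 1 fell, and 2 of 37 synaptic genes rose and 1 fell. Besides Stmn1, the filament gene Prph fell by 0.55, Map7 by 0.34 and Map4 by 0.30. Cadm1, a synaptic cell adhesion gene, rose by 1.0 (adjusted p = 0.00022), with all 4 of its probe sets past the test, and Cdh4 fell by 0.51. Among synaptic relatives Syt7 and the dim Syn2 rose by 0.56 and 0.35, and Syngr3 fell by 0.44. Calls of Prph, Map7, Map4, Cdh4, Syt7, Syn2 and Syngr3 ended in fits lacking 1 array, with an adjusted p up to 0.133 (Syt7, without knockout replicate 3). Averaged over probe sets, 4 of them ended as well: Prph (-0.08, adjusted p = 0.45), Map4 (-0.10, adjusted p = 0.28), Cdh4 (-0.25, adjusted p = 0.0676) and Syn2 (0.12, adjusted p = 0.224). With plain probe set IDs Map4 was -0.02 (adjusted p = 0.902).

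**Figure D4:**
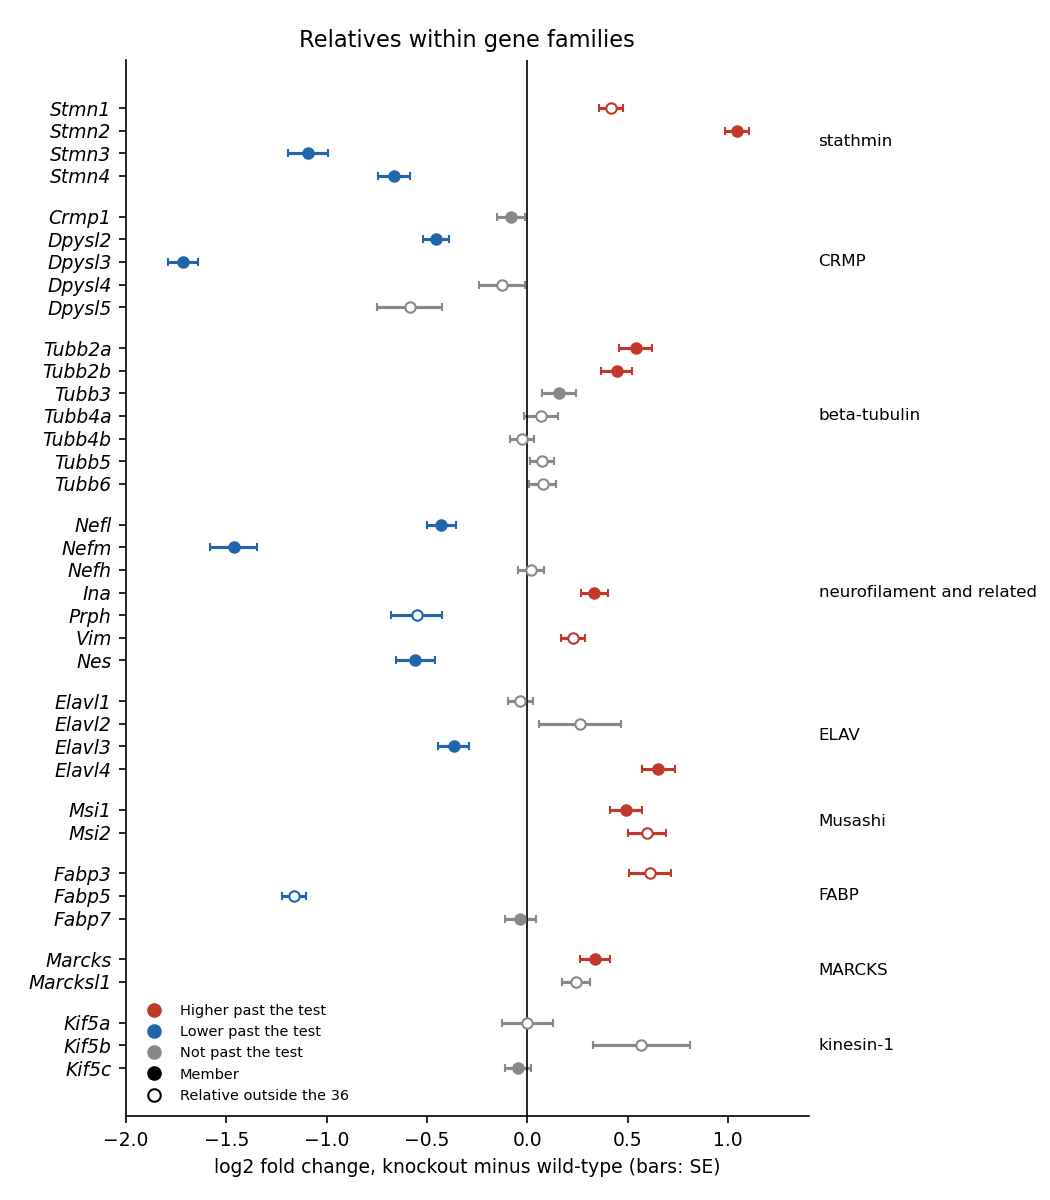
Log2 fold change (horizontal axis) with its standard error for members (filled) and relatives outside the 36 genes (open) in 9 families; red rose, blue fell, grey did not pass. The stathmin, ELAV, FABP and neurofilament families hold changes in both directions, whereas the changed beta-tubulins, Tubb2a and Tubb2b, both rose.

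A difference between cell lines can be shared by neighbouring genes, so each member was set beside the 10 nearest genes on each side (mean log2 value above 7, order of GRCm38.p6). Members themselves were not used as neighbours. A neighbourhood was called low where the median log2 fold change was at or below -0.4. This held for 2 of the 36 genes. Stmn2 lies near the start of chromosome 3, where 10 of its 11 neighbours fell, with a median of -0.87. Stmn2 rose by 1.04 there, so it stood 1.91 (log2) above its surroundings. Syp, on the X chromosome, had 14 of 15 neighbours lower (median -0.82) and did not itself pass. For the other 34 genes the neighbours' median lay between -0.06 and 0.18. Among them were the 4 genes that fell at least 2-fold: Dpysl3 (neighbours 0.18), Map2 (0.11), Stmn3 (0.07) and Nefm (-0.06). Stmn4, Dpysl2, Nefl and Nefm all lie on chromosome 14 and all fell. Of the 20 neighbours of each, 5 fell and 1 rose, with a median of -0.03 (Stmn4 and Dpysl2) or -0.06 (Nefl and Nefm). Among all genes with a group mean above the array median, 14.9% fell and 12.3% rose. A part of this stretch in the falls of these members was not tested. Stmn4 and Dpysl2 had the same neighbours (Pinx1 to Ccar2), and so did Nefl and Nefm (Pbk to Reep4). The sets lie on the same chromosome and may share genes as well, so these are not separate comparisons. With members left out, the falls of these genes do not count in each other's surroundings.

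**Figure D5:**
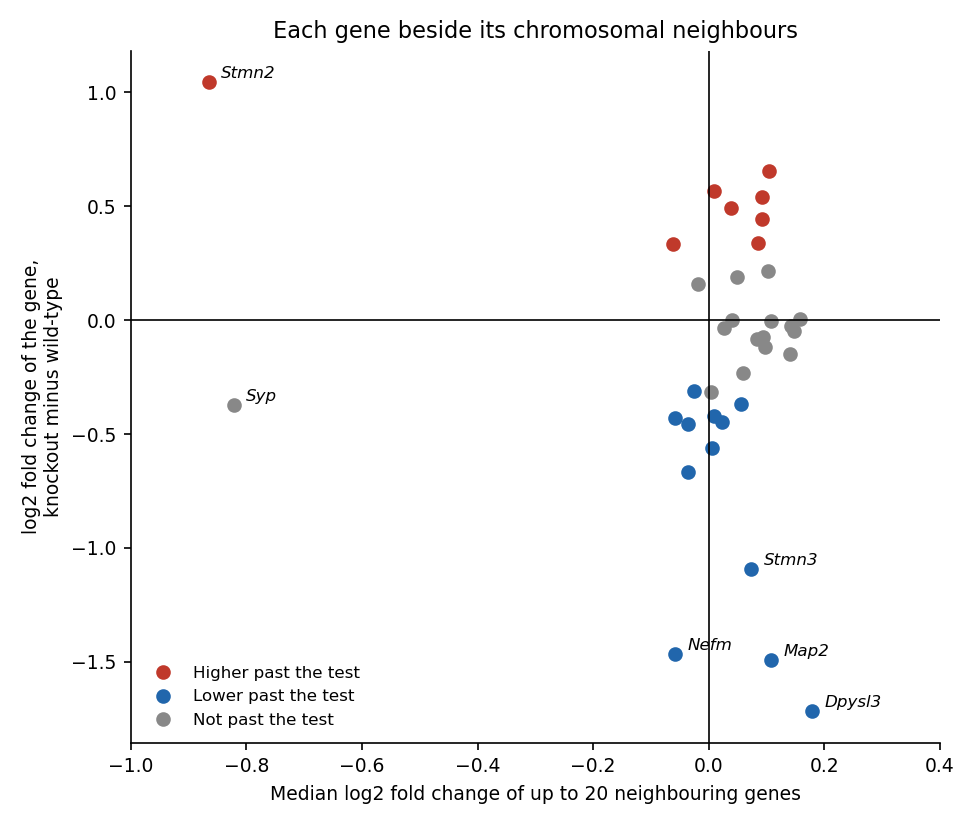
Log2 fold change of each of the 36 genes (vertical axis) against the median log2 fold change of up to 20 neighbouring genes on its chromosome (horizontal axis); red rose, blue fell, grey did not pass. All but Stmn2 and Syp lie near 0 on the horizontal axis; Stmn2 is at -0.87 with a rise of 1.04.

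Markers of another cell type moved with the groups. Of 12 endoderm markers, 10 fell and none rose, with a median log2 fold change of -1.90. Their mean level ran from 6.98 to 7.35 on the wild-type arrays and from 5.39 to 5.43 on the knockout arrays; Gata6 fell by 2.59, Dab2 by 3.38 and Sox17 by 2.45. Averaged over probe sets Gata6 gave -1.37 and Dab2 -1.47, and the knockout mean of Sox17 (4.38) was too dim for an exact size. Afp and Ttr, of later endoderm, were no brighter than the array median in either group. Their part in the falls of the 12 genes was not tested. Fewer cells of a type and less RNA per cell cannot be told apart in such bulk samples. Of 11 glial markers only Olig1 passed (-4.15, with a knockout mean of 3.65, dimmer than the array median, so the size is uncertain), and their mean level ran from 4.84 to 4.93 in wild-type and from 4.55 to 4.62 in knockout cells. That mean level includes Olig1, and the median log2 fold change of the 11 markers was 0.12, so the glial markers were not lower as a set. Of 12 fibroblast markers, 3 fell (Tgfbi, Thy1 and Twist1) and Fn1 rose (the Thy1 call ended without knockout replicate 1 and without knockout replicate 2, adjusted p up to 0.0672, and that of Tgfbi with plain probe set IDs, -0.55, adjusted p = 0.0639), with a mean level of 4.68 to 4.80 and 4.55 to 4.62.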

How the data were processed

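Total RNA from 3 wild-type and 3 Med23 knockout ES cell cultures was measured on Affymetrix arrays. Expression values came from a table the authors deposited, on a log2 scale as judged by their range, with a column per array. RMA and MAS5 are named, per the submitters' processing notes, with no role or version. Values were used as deposited (array medians 4.61 to 4.64); 0 columns of other samples were present. Replicates are called biological, with no more said, so the spread behind each p-value is that of these cultures.

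Array controls (64 of 45101 probe sets) were dropped. The platform annotation gave 34945 of the 45037 tested 1 symbol, 932 several and 9160 none; all 36 members kept their symbol through Entrez identifiers in RefSeq (GRCm38.p6). No build is named with the values. Groups were compared with limma 3.58.1 in R 4.3.3 (lmFit, eBayes; 4 residual and 3.08 prior degrees of freedom), by two-sided tests whose p-values were adjusted by Benjamini-Hochberg across the 45037 probe sets. Fold changes are knockout minus wild-type. On simulated data (45037 probe sets), 50% of 50 changes of 0.5 (log2), 96% of 1, and 100% of 1.5 and of 2 were recovered, with 16 false calls. Changed probe sets were far rarer there than calls in the real comparison (14.1% of probe sets), and the noise was normal. The shares recovered need not hold for the real data.

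The members and lists were chosen with earlier results of these data known. Named were all members (given per array where past the test or above a group mean of 7), Med23, and of each other list up to 4 genes with the largest change past the test, or the 2 with the lowest p; relatives in a member's family and Eif2s3y were added after their values were seen. Alternatives tried were quantile normalization, median centring, a filter on low values, a variance trend, array weights, a replicate block, a minimum fold (treat at 0.25), leaving out each array, averaged probe sets, and plain probe set IDs. Leaving out members in low neighbourhoods, and dim members, was added after seeing the data.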

Additional observations from a re-analysis of the deposited data

How the results depend on the processing

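The counts of 8 members higher and 12 lower became 5 and 11 when all probe sets of a gene were averaged, 2 and 5 when a change beyond 0.25 (log2) was tested (treat), 6 and 11 with plain probe set IDs alone, and 6 and 10 with the replicate number as a block. Leaving out 1 array gave 5 to 8 higher and 8 to 11 lower, and a member median of -0.10 to -0.06, with Med23 between -1.54 and -1.49. Over all probe sets (3013 higher, 3346 lower), plain IDs gave 1971 higher of fewer probe sets, treat 720 higher and 1462 lower, and leaving out 1 array 1497 to 3494 higher and 2289 to 3613 lower. The members' median, -0.08, was -0.15 without the 7 dim genes; leaving out the 2 in low neighbourhoods gave 7 higher and 12 lower. Quantile normalization, median centring, array weights, the variance trend and the low-value filter kept 8 higher and 11 or 12 lower, L1cam being the one lost. Msi2 reversed with plain probe set IDs, to -0.17 by another probe set, and other probe sets of it passed both ways. Same-numbered arrays did not deviate together (correlations -0.133, -0.059 and 0.001). With 3 arrays per group, this cannot show that the cultures were unpaired. The replicate block gave 1915 probe sets higher and 2678 lower. Signal over background limits the 7 dim genes.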

Other observations

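Among 16 RNA- and lipid-binding relatives, 3 rose and 3 fell. The splicing regulator gene Celf4 fell from 8.02 ± 0.10 to 6.79 ± 0.04 (SD, n = 3; log2 fold change -1.23, limma adjusted p = 9.98e-05), with all 3 probe sets past the test. The fatty acid binding protein genes parted: Fabp5 fell from 10.61 ± 0.04 to 9.45 ± 0.01 (-1.16, limma adjusted p = 5.61e-05) and Fabp3 rose from 11.74 ± 0.21 to 12.35 ± 0.01 (0.61, limma adjusted p = 0.00922). Msi2, the relative of Msi1, rose by 0.59 (limma adjusted p = 0.00684); of its 8 probe sets 4 rose and 1 fell, and their average did not pass (0.09, adjusted p = 0.317).

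Of 11 measured genes of REST and its corepressors, 3 rose, none fell and 8 did not pass, with a median log2 fold change of 0.14. Each had a group mean above the array median. Of all such genes, 12.3% rose, 14.9% fell and 27.2% were called either way, so the count is near the general share. Rest itself did not pass (0.15, limma adjusted p = 0.186). Rcor3 rose by 0.48, Phf21a by 0.39 and Kdm1a, the histone demethylase gene, by 0.36. The Phf21a call ended without each knockout replicate (adjusted p up to 0.119, without knockout replicate 3) and that of Kdm1a without knockout replicate 2 (adjusted p = 0.0511). Among the pluripotency markers, 4 fell, among them Klf4, Fgf4 and Dppa4, by 0.63, 0.37 and 0.34, and Tcl1 rose by 0.49. The Fgf4 call ended in 4 of 6 fits lacking 1 array, those without each knockout replicate and without wild-type replicate 2 (adjusted p up to 0.0851, without knockout replicate 2). That of Dppa4 ended without knockout replicate 3 (adjusted p = 0.052), and that of Tcl1 without knockout replicates 2 and 3 (adjusted p up to 0.0553).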
